A study of Mus musculus with 6 samples.

Results

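The genes described here encode lamins, the lamin B receptor, high-mobility-group (HMG) chromatin proteins and the histone variant H2A.Z. They were taken by gene name from a table of 54532 mouse genes, and all 10 names were found: Lmna, Lmnb1, Lmnb2, Lbr, Hmgb1, Hmgb2, Hmgb3, Hmga1, Hmga2 and H2afz. RNA was sequenced from mouse cells labelled as primary lung fibroblasts, the connective tissue cells that lay down lung matrix. The 6 libraries formed 2 groups of 3, calumenin KD and NC. Calu encodes calumenin, a secretory pathway protein that binds calcium. The study's design text asks how its loss bears on senescence and fibrosis signalling. The titles call the groups calumenin KD and NC, whereas the descriptions of the same libraries read KO and WT. The sources used here give neither the meaning of NC nor the agent that lowered calumenin, and no strain, age or number of animals. Whether the 3 libraries of a group are separate cultures or animals is not in the labels, and the spread that the tests use may therefore be technical.

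Lamins are intermediate filament proteins that form a meshwork under the inner nuclear membrane, and the lamin B receptor anchors peripheral heterochromatin to that membrane. HMGB proteins bend DNA through their HMG boxes, HMGA proteins bind AT-rich DNA through AT hooks, and H2A.Z replaces histone H2A in nucleosomes near transcription start sites. Loss of lamin B1 and of HMGB2 and an accumulation of HMGA proteins on chromatin have been described in senescent fibroblasts, which is why these genes are read in studies of senescence.

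The depth was 15907164 to 18312888 reads per library, recovered from the deposited FPKM values (fragments per kilobase of gene length, scaled to library depth). Members had 149 to 11569 reads in a library. Calu (mm10 chromosome 6, 29348069 to 29377110) had 14.6, 12.6 and 13.1 FPKM in KD libraries, against 220, 227 and 225 FPKM in NC libraries. Library KD1 stood apart from KD2 and KD3: across 12282 genes, which are not independent replicates, the Spearman correlation between GC content and each library's departure from the overall mean was -0.41 in KD1, 0.34 in KD2 and 0.49 in KD3, against -0.24 to -0.041 in NC libraries. Of 10 fibroblast markers 7 reached a mean of 1 FPKM, with Vim, Col1a2 and Col1a1 highest, while Thy1 had at most 0.17 FPKM and Dcn and Lum were listed at or near 0. The summed fibroblast markers came to 1451 to 1508 FPKM in KD libraries and 1346 to 1372 FPKM in NC libraries, but single markers differed in sign: Col1a1 (284 FPKM in KD, 149 FPKM in NC) and Pdgfra were called higher in KD and Col3a1 (10.9 FPKM in KD, 24.6 FPKM in NC) and Pdgfrb lower. Summed leukocyte markers came to 3.39 to 5.02 FPKM in KD and 4.91 to 5.77 FPKM in NC, and smooth muscle markers to 5.37 to 6.37 FPKM in KD and 6.31 to 8.001 FPKM in NC. Epithelial markers summed to at most 1.05 FPKM in KD and 0.620 FPKM in NC, and endothelial markers to at most 0.204 FPKM in KD and 0.196 FPKM in NC. A part of these cell types in the results was not tested. In bulk RNA, fewer cells with a transcript and less of it per cell cannot be told apart.

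Hmgb2, Hmgb3 and H2afz rose in KD cells, Hmga2 fell, and the lamin and lamin B receptor genes did not pass the test with all 6 libraries. Calls were made with limma on log2(FPKM + 1), with p-values adjusted over the 12299 genes that had a mean of at least 1 FPKM and called under 0.05. All 10 members reached that mean. Over all tested genes 10.9% were higher and 13.6% lower in KD, so 3 higher and 1 lower of 10 members are counts to be read against about 1 in each direction. The median difference was 0.22 over the members and 0.01 over all tested genes on the log2(FPKM + 1) scale. KD and NC values did not overlap for 5 members, with KD higher for Hmgb2, Hmgb3, H2afz and Lbr and lower for Hmga2. Over all tested genes, KD values lay wholly above NC values for 21.3% and wholly below them for 22.9%.

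The DNA upstream of the 3 genes that rose and of the 1 that fell is printed here because these genes carry the calls. The windows are the 250 bases before the RefSeq transcript start (GRCm38.p6), read on the strand of the gene, at chr8:57511593-57511842 (plus strand) for Hmgb2, chrX:71555667-71555916 (plus) for Hmgb3, chr3:137864237-137864486 (plus) for H2afz, which RefSeq lists as H2az1, and chr10:120476470-120476719 (minus) for Hmga2. Capitals mark CCAAT or, for the other strand, ATTGG, the letters of the CCAAT box that the factor NF-Y is known to bind.
Hmgb2: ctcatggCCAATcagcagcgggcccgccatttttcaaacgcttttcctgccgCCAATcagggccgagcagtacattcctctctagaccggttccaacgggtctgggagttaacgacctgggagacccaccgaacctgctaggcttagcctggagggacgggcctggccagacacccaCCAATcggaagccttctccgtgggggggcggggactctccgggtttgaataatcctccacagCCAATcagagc
Hmgb3: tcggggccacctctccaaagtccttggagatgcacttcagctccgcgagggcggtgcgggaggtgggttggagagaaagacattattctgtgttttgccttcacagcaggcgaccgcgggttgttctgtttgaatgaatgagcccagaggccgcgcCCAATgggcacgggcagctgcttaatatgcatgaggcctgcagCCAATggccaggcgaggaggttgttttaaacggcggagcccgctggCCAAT
H2afz: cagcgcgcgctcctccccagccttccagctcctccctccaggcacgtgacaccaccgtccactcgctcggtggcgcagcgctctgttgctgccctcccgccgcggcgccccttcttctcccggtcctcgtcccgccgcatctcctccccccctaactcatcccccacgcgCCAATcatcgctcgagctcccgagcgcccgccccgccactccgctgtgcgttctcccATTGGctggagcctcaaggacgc
Hmga2: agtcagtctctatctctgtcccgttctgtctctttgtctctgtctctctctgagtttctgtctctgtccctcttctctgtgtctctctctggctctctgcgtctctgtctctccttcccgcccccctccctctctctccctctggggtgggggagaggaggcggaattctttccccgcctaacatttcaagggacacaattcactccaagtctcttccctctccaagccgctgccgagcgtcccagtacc

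Of 32851 RefSeq promoter windows of that length, 33.8% held CCAAT at least 1 time on either strand, 10.1% at least 2 times, 2.79% at least 3 times and 0.84% at least 4 times. The Hmgb2 window held it 4 times, starting at positions -243, -198, -73 and -11 from the transcript start. The Hmgb3 window held it 3 times and the H2afz window 2 times, on opposite strands, whereas the Hmga2 window had no match. Matches were not limited to genes that rose: Lbr had 2, Hmgb1 had 3 at 1 of its starts and 0 at the other, Lmna had 1 at 1 of its starts, and Lmnb2 and Hmga1 had none. Lmnb1 was left out of these member counts. TTTGAA, a form of the cell-cycle homology region of late cell-cycle promoters, was present 2 times upstream of Hmgb2 and 1 time each upstream of Hmgb3 and Lbr, with at least 1 match in 15.99% of all windows and at least 2 in 1.81%. The E2F-like letters TTGGCGC were found upstream of H2afz and of Lmnb2, at 1 of its starts, and in 1.97% of all windows, and TTCCCGC upstream of Hmga2 and in 3.82%. The TTGGCGC match upstream of H2afz lies on the other strand and shares its letters TTGG with the CCAAT match at position -80. A match is a description of letters in this window, and factor binding was not measured.

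**Figure D1:**
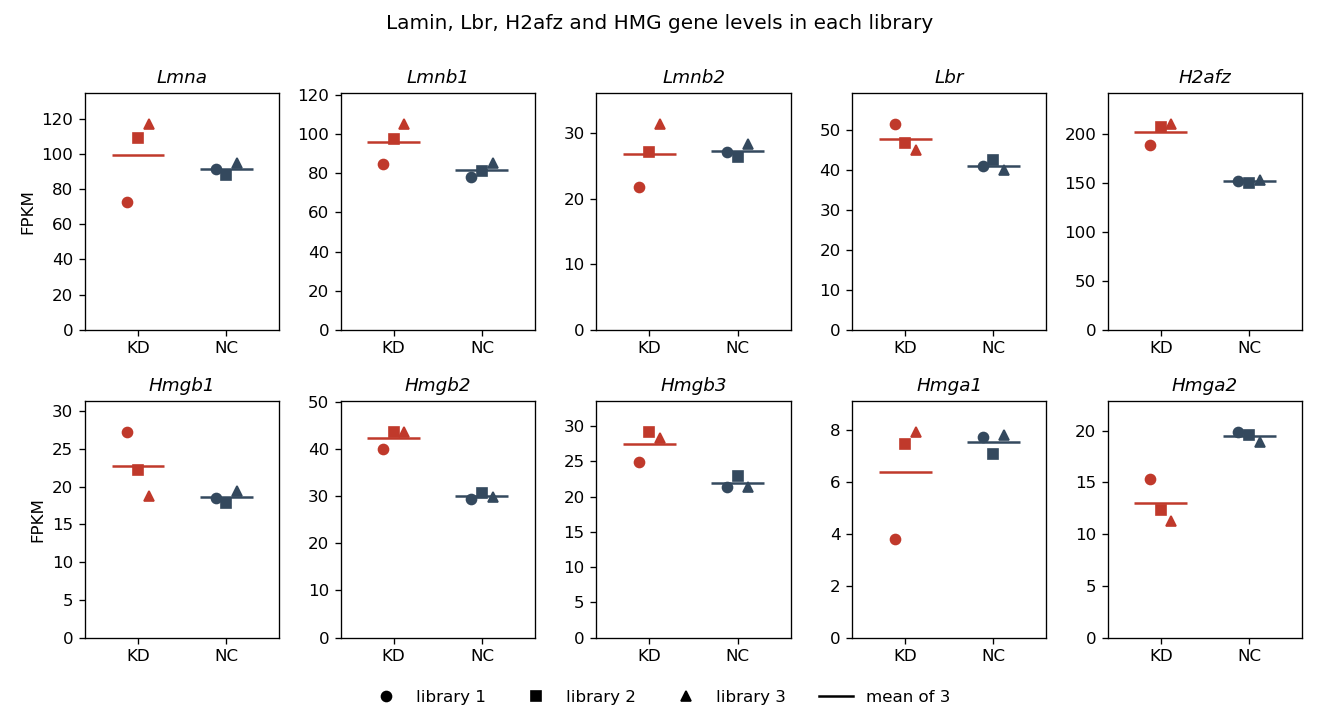
FPKM (vertical axes, from 0) of each of the 10 genes in the 3 KD libraries (red, left) and the 3 NC libraries (blue, right), with symbols for library numbers and a line at each group's mean. KD points lie above all NC points for Hmgb2, Hmgb3, H2afz and Lbr and below them for Hmga2, and the circle of KD1 lies far from the other KD points for Lmna and Hmga1.

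Among the lamin genes, Lmna encodes lamins A and C, the A-type lamins that stiffen the nucleus. Lmna (ENSMUSG00000028063, chromosome 3, 88480147 to 88509956, minus strand) had 72.4, 109 and 117 FPKM in KD1, KD2 and KD3, against 91.2, 88.2 and 95.02 FPKM in NC1, NC2 and NC3. The KD libraries spanned the NC libraries, with KD1 below and KD2 and KD3 above all of them. The means were 99.5 ± 23.9 FPKM in KD and 91.5 ± 3.43 FPKM in NC (SD, n = 3 each), and the log2(FPKM + 1) difference was 0.09 (SE 0.17, limma adjusted p = 0.737). Without KD1 Lmna was higher in KD by 0.30 (limma adjusted p = 0.00616), and without KD3 the difference was -0.041, so the value rested on which KD libraries were kept.

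Lmnb1 encodes lamin B1, a farnesylated lamin that stays attached to the membrane and whose mRNA is a common readout of senescence, where it is lost. Lmnb1 (ENSMUSG00000024590, chromosome 18, 56707813 to 56753424, plus strand) had 84.6, 97.7 and 105 FPKM in KD libraries, against 78.2, 81.1 and 85.2 FPKM in NC libraries. KD2 and KD3 were above every NC library, and KD1 lay between the NC values. With all libraries KD exceeded NC by 0.23 (SE 0.09, limma adjusted p = 0.111), a value that missed the threshold, and by 0.31 (adjusted p = 0.00688), past it, without KD1. No alternative put Lmnb1 lower in KD: over 21 alternatives its difference ran between 0.16 and 0.31, past the threshold in 4 of them.

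Lmnb2 encodes lamin B2, the other B-type lamin. Lmnb2 (ENSMUSG00000062075, chromosome 10, 80901203 to 80918245, minus strand) had 21.8, 27.2 and 31.4 FPKM in KD libraries, against 27.1, 26.4 and 28.3 FPKM in NC libraries. KD1 was the lowest and KD3 the highest of the 6, and the groups overlapped. KD minus NC came to -0.04 (SE 0.13, limma adjusted p = 0.846), with a positive value under 3 alternatives: 0.10 without KD1, 0.16 with chromosome medians removed and 0.0032 after quantile normalization.

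Lbr encodes the lamin B receptor, a protein of the inner nuclear membrane that binds B-type lamins and heterochromatin protein 1 and also carries sterol reductase activity. Lbr (ENSMUSG00000004880, chromosome 1, 181815335 to 181843046, minus strand) had 51.5, 46.6 and 44.8 FPKM in KD libraries, against 40.9, 42.3 and 39.8 FPKM in NC libraries. All KD values were above all NC values, with KD1 the highest. The difference was 0.21 (SE 0.07) and missed the threshold with all libraries (limma adjusted p = 0.0633). It passed without KD1 (0.15, adjusted p = 0.0319), after removal of a trend with GC and length (0.30, adjusted p = 0.00123) and with chromosome medians removed (0.38, adjusted p = 0.00561). Chromosome 1, which holds Lbr, had a median difference of -0.15.

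The ratios between lamins gave each library's balance without a scaling factor. Lmnb2 over Lmnb1 was 0.257, 0.278 and 0.298 in KD libraries, against 0.347, 0.325 and 0.332 in NC libraries. These 2 sets did not overlap and KD was lower, although neither gene passed the test on its own. With 3 libraries a group an exact permutation test cannot give a two-sided p below 0.1. The gap between the 2 genes was smaller with chromosome medians removed. Their differences were then 0.16 for Lmnb2 and 0.20 for Lmnb1, against -0.04 and 0.23 without that step. With the GC and length trend removed instead, the gap was wider, at -0.12 for Lmnb2 and 0.21 for Lmnb1. Chromosome 10, which holds Lmnb2, had a median difference of -0.19. Lmna over Lmnb1 was 0.856, 1.12 and 1.11 in KD libraries and 1.17, 1.09 and 1.12 in NC libraries, with KD1 alone below the rest.

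HMGB proteins are the abundant HMG-box proteins of the nucleus. Hmgb2, whose protein is high in proliferating cells, showed the largest rise among the members with all libraries, although with chromosome medians removed H2afz (0.41) and Lbr (0.38) exceeded it (0.33). Hmgb2 (ENSMUSG00000054717, chromosome 8, 57511907 to 57515999, plus strand) had 40.0, 43.6 and 43.8 FPKM in KD libraries, against 29.5, 30.8 and 29.9 FPKM in NC libraries. All KD values were above all NC values, and the spread within each group was small beside the gap. The means were 42.5 ± 2.14 FPKM in KD and 30.04 ± 0.663 FPKM in NC (SD, n = 3 each), an FPKM ratio of 1.41 and a log2 difference of 0.49 (SE 0.06, limma adjusted p = 0.00214). The call held under all 21 alternatives, with differences of 0.33 to 0.57, the lowest with chromosome medians removed, since chromosome 8 had a median difference of 0.17.

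Hmgb3, on the X chromosome, encodes an HMG-box protein described in embryonic and blood-forming cells. Hmgb3 (ENSMUSG00000015217, 71555918 to 71560676, plus strand) had 24.9, 29.2 and 28.4 FPKM in KD libraries, against 21.4, 22.9 and 21.4 FPKM in NC libraries. The groups did not overlap, with KD1 nearest to NC. The means were 27.5 ± 2.27 FPKM in KD and 21.9 ± 0.887 FPKM in NC (SD, n = 3 each), and the difference was 0.31 (SE 0.07, limma adjusted p = 0.0250). The call ended when KD2, KD3 or any 1 NC library was left out (limma adjusted p between 0.0629 and 0.0970) and with chromosome medians removed (0.0661), while the differences stayed between 0.27 and 0.39 over the 21 alternatives.

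Hmgb1 encodes the most abundant HMG-box protein of most cells, which also acts as an alarm signal when released. Hmgb1 (ENSMUSG00000066551, chromosome 5, 149046702 to 149184489, minus strand) had 27.3, 22.2 and 18.7 FPKM in KD libraries, against 18.5, 17.9 and 19.5 FPKM in NC libraries. KD1 and KD2 were above every NC library and KD3 was within the NC range. The difference of 0.26 (SE 0.13) did not pass with all libraries (limma adjusted p = 0.183), passed without KD3 (0.39, adjusted p = 0.0425) and after removal of a trend with GC and length (0.34, adjusted p = 0.0142), and was 0.13 without KD1.

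The Hmgb1 value needed a second look because the mouse genome carries many processed copies of this gene. By sequence, 37 annotated rows matched at least 95% of bases over at least 100 bases of the Hmgb1 coding sequence, and 24 of them had reads. These copies held 45.7%, 58.4% and 63.2% of the summed reads in KD1, KD2 and KD3, against 51.0%, 52.9% and 53.1% in NC1, NC2 and NC3. The copy with the highest mean FPKM, Hmgb1-ps2 on chromosome X (51.9 FPKM over the 6 libraries), had 54.3, 74.8 and 58.8 FPKM in KD libraries, against 37.6, 42.4 and 43.4 FPKM in NC libraries, a difference of 0.58 (limma adjusted p = 0.0175). Close behind it at 51.4 FPKM, Gm5518 on chromosome 19 had 42.0, 68.9 and 78.7 FPKM in KD libraries, against 36.7, 38.5 and 43.4 FPKM in NC libraries, a difference of 0.62 that missed the threshold (limma adjusted p = 0.0858). Next in level at 42.4 FPKM, Gm5527 on chromosome 1 did not rise. It had 36.8, 31.8 and 58.5 FPKM in KD libraries, against 41.9, 40.2 and 45.4 FPKM in NC libraries. Its difference was -0.051 (limma adjusted p = 0.882). How the counting assigned a read that fits several copies is not given in the sources used here, so the split between gene and copies is uncertain. With the copies' reads added to the gene, a step chosen after seeing the data, Hmgb1 had 50.3, 53.5 and 50.9 FPKM in KD libraries, against 37.8, 37.9 and 41.5 FPKM in NC libraries. On this sum the groups no longer overlapped, and Hmgb1 with its copies was higher in KD by 0.39 (SE 0.06, limma adjusted p = 0.00542). It passed in each of the 6 fits that left out 1 library, with adjusted p between 0.00293 and 0.0361. Hmgb1 also spans other genes, among them Gm8615, a transcribed pseudogene on the same strand with a mean of 27.9 FPKM, and Uspl1, a protein-coding gene on the opposite strand with 5.10 FPKM.

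**Figure D2:**
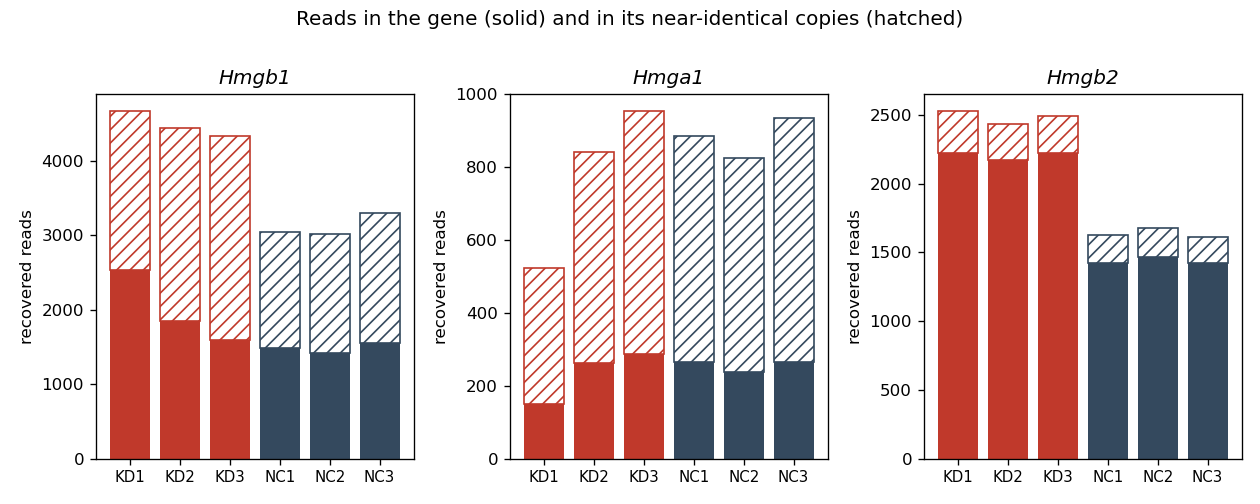
Recovered reads (vertical axes, from 0) in Hmgb1, Hmga1 and Hmgb2 (solid) and in annotated near-identical copies (hatched, stacked) in each KD library (red, left) and NC library (blue, right). The Hmgb1 bars with copies are taller in all 3 KD libraries, whereas KD1 alone is low for Hmga1 in both parts of its bar.

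For Hmgb2 the 5 copies held 10.7% to 12.5% of reads in a library, for Hmgb3 1 copy held 2.04% to 3.55%, and the 2 copies of H2afz had no reads. Lmna, Lmnb1, Lmnb2, Lbr and Hmga2 had no copy by this rule. With copies added, 4 members were called higher and 1 lower, where 1345 of all 12299 tested genes were higher and 1673 lower. Hmgb2 over Hmgb1, without copies, was 1.47, 1.96 and 2.34 in KD libraries and 1.59, 1.72 and 1.54 in NC libraries, and the groups overlapped.

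Of the HMGA genes, which encode AT-hook proteins of embryonic and transformed cells, Hmga2 fell and Hmga1 did not pass the test. Hmga2 (ENSMUSG00000056758, chromosome 10, 120361275 to 120476469, minus strand) had 15.4, 12.3 and 11.3 FPKM in KD libraries, against 19.9, 19.6 and 18.9 FPKM in NC libraries. All KD values were below all NC values, and KD1 was the KD library nearest to NC. The means were 12.99 ± 2.12 FPKM in KD and 19.5 ± 0.522 FPKM in NC (SD, n = 3 each), an FPKM ratio of 0.667 and a difference of -0.56 (SE 0.11, limma adjusted p = 0.0124). Without KD1 the difference was -0.68 (adjusted p = 0.000539). The call ended without KD2 (adjusted p = 0.0528), without NC1 (0.0539), without NC2 (0.0518) and with chromosome medians removed (difference -0.36, adjusted p = 0.0695), since chromosome 10 had a median difference of -0.19. Antisense genes overlapping Hmga2 were low, at 0.398 and 0.199 FPKM on average.

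Hmga2 mRNA is a classic target of the let-7 miRNAs, which hold it down in differentiated cells. The sites are printed because the Hmga2 transcript held more of them than any other member transcript read here. The let-7a miRNA from RefSeq (chr13:48538239-48538260, minus strand, GRCm38.p6) follows with its seed, bases 2 to 8, in capitals. Below it are the 4 matches to the seed, CTACCTC in capitals, in the 3′ UTR of the Hmga2 transcript ENSMUST00000159699.1 (GENCODE M21, GRCm38, minus strand), at chr10:120364213-120364242, chr10:120362976-120363005, chr10:120362538-120362567 and chr10:120361680-120361709, which lie 58, 1295, 1733 and 2591 bases after the stop codon.
let-7a: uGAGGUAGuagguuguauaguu
site 1: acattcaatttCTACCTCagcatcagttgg
site 2: actcctcaataCTACCTCtgaatgctacag
site 3: tttgcaaggaaCTACCTCcacacttccaaa
site 4: aaaacacactaCTACCTCttaagtcccagt

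The whole Hmga2 transcript of 3810 bases held CTACCTC 6 times on its own strand, 4 times in the 3′ UTR and 2 times in the 5′ UTR. For each of 21901 genes the protein-coding transcript with the most bases was read. Of these, 20.9% held CTACCTC at least 1 time, 0.183% at least 4 times and 0.032% at least 6 times, and longer transcripts have more room for it. Of the other members, Lbr held it 1 time in its 3′ UTR, Lmna 2 times and Lmnb2 1 time in coding sequence. The transcripts read for the rest had none. For each member this was the transcript with the longest coding sequence, a different choice from that for the 21901 genes. That of Hmga1 had 584 bases, with 111 after the stop codon, against a gene length of 2125 bases. The remainder of Hmga1 was not searched. In RefSeq, 11 mature miRNA names shared this seed. Mature miRNAs were not measured in these libraries, and a match is not evidence of repression here.

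Genes that act on let-7 or on HMGA mRNA were read beside Hmga2. Of 8 listed genes 6 were tested, 1 fell and 0 rose by limma with all libraries (1 rose at an unadjusted p under 0.05, and voom called 1 higher and 2 lower). Without KD1, 1 rose and 2 fell. The 1 that fell was Tut7, a terminal uridylyltransferase that acts on let-7 precursors, with 10.4, 9.86 and 8.71 FPKM in KD libraries, against 13.1, 13.6 and 13.4 FPKM in NC libraries (difference -0.43, limma adjusted p = 0.00728). Lin28b, whose protein blocks let-7 processing, was below the 1 FPKM minimum. It had 0.0179, 0.0932 and 0.0522 FPKM in KD libraries, against 0.604, 0.451 and 0.397 FPKM in NC libraries, or 25 reads over the KD libraries against 210 over the NC libraries. In the fit with no filter on low FPKM it was called lower (difference -0.49, limma adjusted p = 0.0117), so that 2 genes of the list fell there, Tut7 and Lin28b. Lin28b was singled out after its values were seen. Its KD values were all below its NC values, and Lin28a was listed at 0 in all 6 libraries.

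Hmga1 (ENSMUSG00000046711, chromosome 17, 27556497 to 27563674, plus strand) had 3.79, 7.47 and 7.96 FPKM in KD libraries, against 7.76, 7.08 and 7.84 FPKM in NC libraries. KD1 was the lowest of the 6, at 149 reads, and KD2 and KD3 lay within or just above the NC range. The difference was -0.26 (SE 0.23, limma adjusted p = 0.447) and 0.026 without KD1. Hmga1b on chromosome 11, with 98.9% identical bases over 361 bases, held 68.8% to 71.7% of the summed reads of the pair in a library. It had 12.5, 21.5 and 24.3 FPKM in KD libraries, against 23.7, 22.7 and 26.0 FPKM in NC libraries. KD1 was the lowest of the 6, as for Hmga1, KD2 was below every NC library and KD3 lay within the NC range. With both added, the difference was -0.33 (limma adjusted p = 0.339). AI413582 overlaps Hmga1 on the opposite strand, at 5.02 FPKM, and whether reads were counted by strand is not given in the sources used here. Hmga1 over Hmga2, without the reads of Hmga1b, was 0.247, 0.606 and 0.707 in KD libraries, against 0.390, 0.361 and 0.415 in NC libraries. On this ratio KD1 was below and KD2 and KD3 above every NC library.

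H2afz encodes histone H2A.Z and had the highest level per length of the 10 genes. H2afz (ENSMUSG00000037894, chromosome 3, 137864487 to 137866922, plus strand) had 189, 207 and 211 FPKM in KD libraries, against 152, 150.4 and 153 FPKM in NC libraries. All KD values were above all NC values. The means were 202 ± 11.5 FPKM in KD and 152 ± 1.40 FPKM in NC (SD, n = 3 each), an FPKM ratio of 1.33 and a difference of 0.41 (SE 0.06, limma adjusted p = 0.00432). The call held under all 21 alternatives, with differences of 0.38 to 0.46.

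The order of levels per length was close in both groups. In KD libraries H2afz was followed by Lmna and Lmnb1, whose ranges overlapped, then Lbr and Hmgb2, then Hmgb3, Lmnb2 and Hmgb1, each overlapping the next, and then Hmga2 and Hmga1. In NC libraries the order was H2afz, Lmna, Lmnb1, Lbr, Hmgb2, Lmnb2, Hmgb3, Hmga2, Hmgb1 and Hmga1, and only Hmga2 and Hmgb1 overlapped as neighbours. These levels leave out reads in near-identical copies, so the places of Hmgb1 and Hmga1 are uncertain. With copies added, Hmgb1 averaged 51.6 FPKM in KD and 39.0 FPKM in NC. Hmga1 then averaged 21.3 FPKM in KD and 26.0 FPKM in NC, above Hmga2 (12.99 and 19.5 FPKM).

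**Figure D3:**
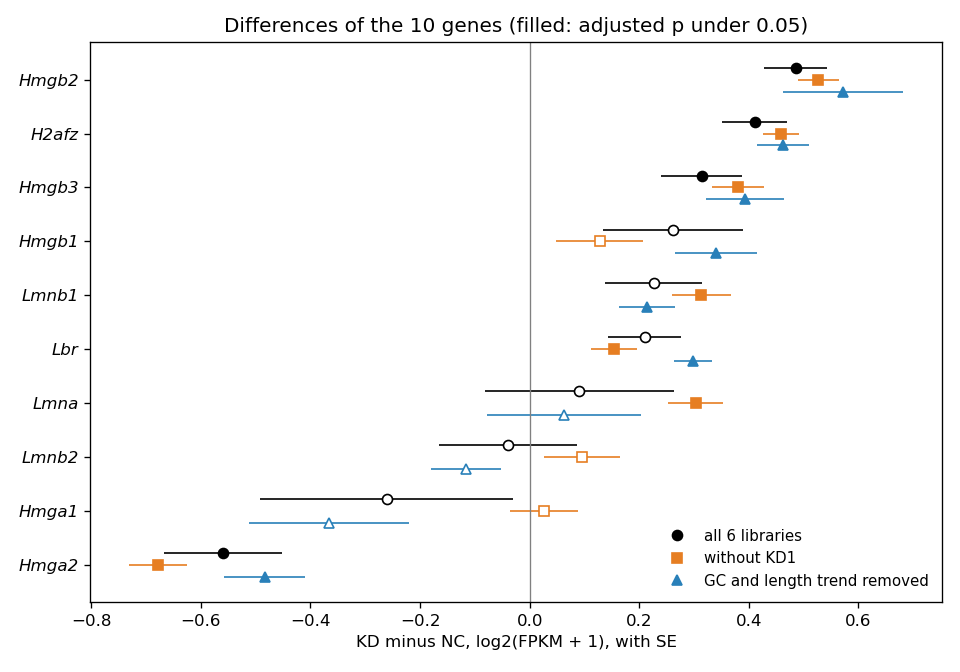
KD minus NC difference on the log2(FPKM + 1) scale (horizontal axis, bars are 1 SE) of each gene with all 6 libraries (black circles), without KD1 (orange squares) and after removal of a trend with GC and length (blue triangles), filled where the limma adjusted p is under 0.05. Hmgb2, H2afz, Hmgb3 and Hmga2 are filled in all 3 fits, whereas Lmna is filled only without KD1 and Hmgb1 only with the trend removed.

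The number of members that passed depended on library KD1. KD1 was the lowest KD library for 7 members and the highest for Hmgb1, Hmga2 and Lbr. Its log2(FPKM + 1) value minus the mean of KD2 and KD3 was -0.86 for Hmga1, whose transcript has 61.4% GC, -0.64 for Lmna (53.1%) and -0.41 for Lmnb2 (57.6%), against 0.40 for Hmgb1 (40.1%) and 0.35 for Hmga2 (45.7%). Hmgb2, with the lowest GC content at 38.7%, was nevertheless 0.12 lower in KD1. The part of GC content in these values was not tested gene by gene. Without KD1, 6 members were higher (H2afz, Lmna, Lmnb1, Lbr, Hmgb2 and Hmgb3) and 1 lower (Hmga2), where 20.9% of all tested genes were higher and 21.5% lower. With a GC and length trend removed from each library, 6 members were higher (H2afz, Lmnb1, Lbr, Hmgb1, Hmgb2 and Hmgb3) and 1 lower (Hmga2), where 19.4% of all tested genes were higher and 18% lower. With each chromosome's median difference removed, 3 members were higher (H2afz, Lbr and Hmgb2), where 9.62% of all genes were higher and 10.9% lower, and limma called 0 members lower, 1 at an unadjusted p under 0.05.

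**Figure D4:**
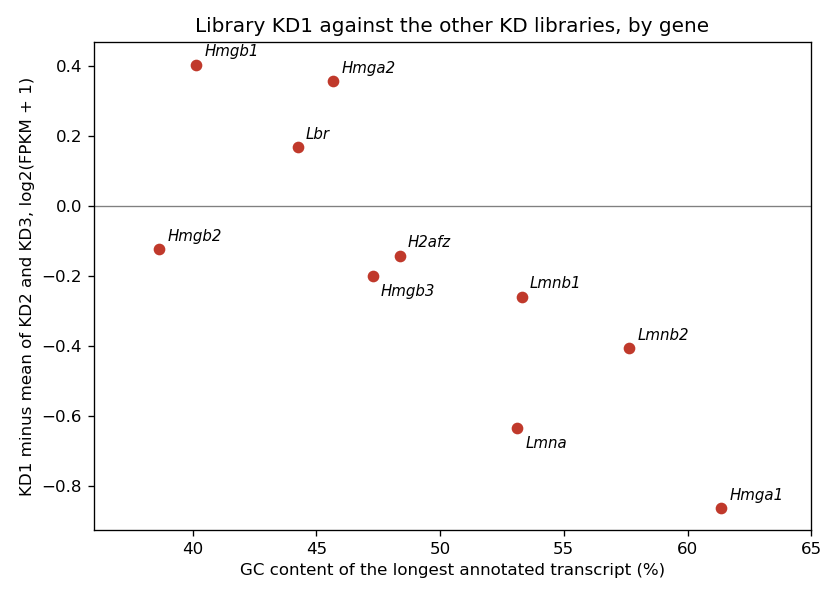
KD1 minus the mean of KD2 and KD3 on the log2(FPKM + 1) scale (vertical axis) against the GC content of the longest annotated transcript (horizontal axis, percent) for the 10 genes. Hmga1, Lmnb2, Lmna and Lmnb1, the genes with the highest GC content, lie below 0, and Hmgb2, with the lowest, lies just below 0 as well.

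The 7 lists of related genes are read against the shares over all tested genes, and no list was tested as a set. Those shares were 10.9% higher and 13.6% lower with all libraries and 20.9% and 21.5% without KD1. They were 19.4% and 18% with the GC and length trend removed, and 9.62% and 10.9% with chromosome medians removed. With no filter on low FPKM, 992 of 28280 genes were higher and 1519 lower. Of 23 genes of the inner nuclear membrane, the LINC complex and lamin processing 3 rose (13.0%), 2 fell (8.70%) and 18 did not pass. These were near the shares with all libraries, and the median difference was 0.05. Tor1aip1, which encodes the lamin-binding torsin activator LAP1, had 20.9, 15.3 and 15.1 FPKM in KD libraries, against 42.6, 42.8 and 40.0 FPKM in NC libraries (difference -1.25, limma adjusted p = 0.00101). Tor1aip2, a related torsin activator, had 16.4, 13.5 and 14.0 FPKM in KD libraries, against 25.3, 25.7 and 23.2 FPKM in NC libraries (-0.73, adjusted p = 0.00199). Both fell with no overlap between groups. They are neighbours on chromosome 1 and overlap on opposite strands between 156035403 and 156036480, where reads cannot be told apart without a stated strand. Nrm, encoding the inner membrane protein nurim, rose to 13.8, 15.3 and 15.9 FPKM in KD libraries, against 9.64, 9.96 and 10.54 FPKM in NC libraries (0.53, adjusted p = 0.00332), and these 3 calls held in every alternative. Fntb, the beta subunit of the enzyme that farnesylates lamins, rose by 0.34 (adjusted p = 0.0139), a call that ended without KD2, NC1 or NC3. Without KD1 9 genes of the list rose and 3 fell, and with any other library left out 1 to 3 rose and 2 to 3 fell. After removal of the GC and length trend 9 rose and 4 fell, and 5 were higher and 2 lower after removal of chromosome medians.

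Of 20 other HMG genes 15 were tested, 1 rose (6.67%), 4 fell (26.7%) and 10 did not pass, with a median of -0.04. Ssrp1, the HMG-box subunit of the histone chaperone FACT, fell to 61.1, 71.0 and 73.1 FPKM in KD libraries, against 95.4, 91.0 and 89.8 FPKM in NC libraries (-0.43, limma adjusted p = 0.0105, and 0.0523 without NC1). The nucleosome-binding Hmgn5 (-0.48), the mitochondrial HMG-box factor Tfam (-0.34) and the replication factor Wdhd1 (-0.31) also passed, with adjusted p of 0.0311, 0.0228 and 0.0257. Each of these 3 calls ended without KD2, KD3 or any 1 NC library. Without KD1 1 gene rose and 5 fell, and with any other library left out at most 1 gene of the list passed. After removal of the GC and length trend 2 rose and 4 fell, while after removal of chromosome medians, as with no filter on low FPKM, the genes that passed were 2, both lower.

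Of 22 genes of H2A variants and H2A.Z exchange 20 were tested, 5 rose (25%), 4 fell (20%) and 11 did not pass, with a median of 0.03. H2afx, the variant phosphorylated at DNA breaks, rose to 61.3, 78.7 and 84.5 FPKM in KD libraries, against 48.7, 45.1 and 45.3 FPKM in NC libraries (0.67, limma adjusted p = 0.00944). H2afv, which encodes the second H2A.Z protein, had 28.5, 31.7 and 37.2 FPKM in KD libraries, against 22.8, 23.7 and 24.2 FPKM in NC libraries (0.44, adjusted p = 0.0207). H2afj, described in human senescent fibroblasts, had 7.35, 14.7 and 16.3 FPKM in KD libraries, against 5.75, 5.98 and 4.96 FPKM in NC libraries (1.004, adjusted p = 0.0350). KD values of these 3 variants were above all NC values, and KD1 was lowest among KD each time. The calls of H2afv and H2afj ended without KD2 or any 1 NC library, that of H2afj also without KD3, and that of H2afx held in every alternative. Ruvbl1, a helicase shared by the H2A.Z exchange complexes, had a difference of -0.46 (adjusted p = 0.0314), lost without KD2 or any 1 NC library and with chromosome medians removed. Without KD1 7 genes of the list rose and 6 fell, and with any other library left out 1 to 4 rose and 1 to 4 fell. After removal of the GC and length trend 4 rose and 6 fell. After removal of chromosome medians 5 rose and 2 fell, and with no filter on low FPKM 3 rose and 2 fell.

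Of 29 heterochromatin and histone chaperone genes 4 rose (13.8%), 3 fell (10.3%) and 22 did not pass, near the shares over all genes, with a median of 0.03. After removal of the GC and length trend 10 rose and 5 fell, beside shares over all genes of 19.4% and 18%. After removal of chromosome medians 4 rose and 1 fell, and with no filter on low FPKM 2 rose and 2 fell. Asf1b, a chaperone of newly made histones in dividing cells, rose to 42.4, 42.7 and 47.5 FPKM in KD libraries, against 32.9, 34.9 and 33.7 FPKM in NC libraries (0.38, limma adjusted p = 0.00764) and held in every alternative. Kmt5c, a methyltransferase of histone H4, and Uhrf1, a partner of the maintenance DNA methyltransferase, differed by 0.47 and 0.31 (adjusted p = 0.0256 and 0.0437). Cabin1, a subunit of the HIRA chaperone complex, differed by -0.31 (adjusted p = 0.0158). These last 3 calls each ended in at least 3 of the fits that left out 1 library. Without KD1, 8 genes of the list rose and 8 fell, and with any other library left out 1 to 2 rose and 0 to 2 fell. With no filter on low FPKM the calls of Hmgn5, Wdhd1, H2afv, H2afj, Ruvbl1, Uhrf1 and Kmt5c also ended, as did those of Tfam, Wdhd1, Uhrf1 and Cabin1 with chromosome medians removed.

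The HMGB1 receptor and release list had 6 tested genes of 9, of which 2 fell (33.3%) and 0 rose by limma (0 also at an unadjusted p under 0.05 and by voom). The receptor gene Tlr2 had 5.70, 5.71 and 5.37 FPKM in KD libraries, against 12.0, 11.4 and 10.9 FPKM in NC libraries (-0.91, limma adjusted p = 0.00022). The deacetylase gene Hdac1 had 22.2, 22.6 and 23.0 FPKM in KD libraries, against 30.6, 28.8 and 28.6 FPKM in NC libraries (-0.36, adjusted p = 0.00465). Both fell without overlap between the groups, and both calls held in every alternative. Without KD1 4 genes of this list fell. Ager, the classical HMGB1 receptor gene, had a mean of 0.160 FPKM in KD and 0.215 FPKM in NC and was not tested.

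Because lamin B1, HMGB2 and H2A.Z levels follow the cell cycle, 10 markers of cycling cells were read beside them: 1 rose (10%), 1 fell (10%) and 8 did not pass, with a median of 0.05. With the GC and length trend removed 3 rose and 1 fell. Mki67 had 153.6, 138 and 131 FPKM in KD libraries, against 104, 107 and 104 FPKM in NC libraries (0.42, limma adjusted p = 0.00754). Mcm2, a subunit of the replicative helicase, differed by -0.33 (adjusted p = 0.0186), a call that ended without KD2 or any 1 NC library and with chromosome medians removed. Without KD1 4 markers rose and 2 fell, and with any other library left out 1 rose and 0 to 1 fell. The part of cycling cells in the rises of Hmgb2 and H2afz was not tested.

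**Figure D5:**
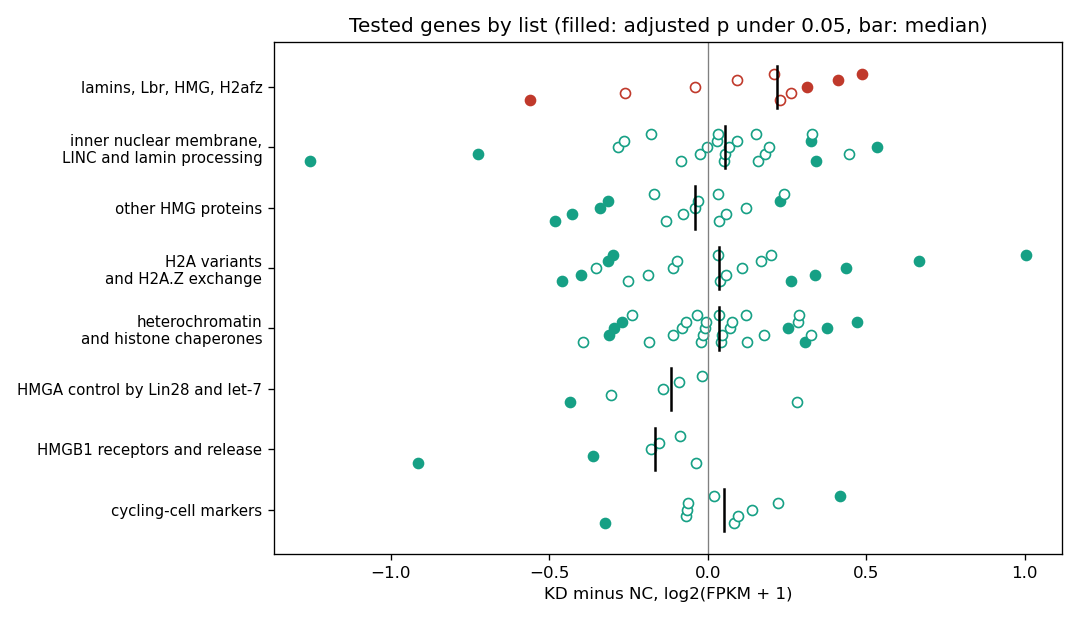
KD minus NC difference on the log2(FPKM + 1) scale (horizontal axis) of every tested gene of the 10 members (red, top row) and of 7 context lists (green), filled where the limma adjusted p is under 0.05, with a bar at each median. The member median of 0.22 lies right of the list medians, which run between -0.17 and 0.05, and each list holds called genes.

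By Euclidean distance of centred log2(FPKM + 1) values over the 6 libraries, among 10288 protein-coding genes, the genes most alike in pattern were Man2b2 (0.0673) and Scd2 (0.0728) for Hmgb2, Clk2 (0.0522) and Tbc1d2b (0.0643) for Hmgb3, Ucp2 (0.0411) and Micall1 (0.0545) for H2afz, and Gcc2 (0.0488) and Lims1 (0.0515) for Hmga2. Scd2, the most abundant of these, averaged 296 FPKM in KD and 211 FPKM in NC. Lims1 had 43.8, 34.6 and 32.4 FPKM in KD libraries, against 53.8, 54.2 and 52.0 FPKM in NC libraries, so KD1 lay nearest to NC as it did for Hmga2.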

How the data were processed

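The authors deposited FPKM values per gene for 6 libraries with gene length in bases; reads were paired and aligned with HISAT2 2.0.5, per the labels' protocols, to mm10, per the submitters' processing notes. Which tool counted reads, with which strand setting and annotation release, is not given in the sources used here. FPKM times deposited gene length gave whole reads in each library (100% of checked values within a tolerance of 0.01). All 6 columns of per-sample values were used. KD columns are headed KO and NC columns WT, and were matched through the sample descriptions.

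Differences on the log2(FPKM + 1) scale were fitted with limma 3.58.1 (R 4.3.3) for the 12299 genes whose mean reached 1 FPKM, as a model of group with an intensity trend, Benjamini-Hochberg adjusted at 0.05 over all of them. The scale understates changes of low genes. Alternatives were other filters, pseudocounts and scalings, no trend, robust moderation, a replicate block, removal of GC and length trends (splines with 5 degrees of freedom, GC for 99.86% of tested genes) or of chromosome medians, protein-coding genes only, voom on recovered reads, and each library left out. The code was tested on simulated counts without a GC trend or an outlying library, so that test gives no error rate for these libraries. Copies were found with blastn 2.17.0 against GENCODE M21 transcripts.

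The members, context lists and tests were chosen with earlier results of these data known. From each context list up to 4 genes past the threshold with the largest absolute difference were named, and for each called member the 2 genes most alike. Promoter windows came from RefSeq (GRCm38.p6), and those of 9 of 10 members were used. Lmnb1, the member on chromosome 18, was left out of the motif counts. Other steps ran in Python 3.11.15 with pandas 2.3.3, and figures in matplotlib 3.10.9.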

Additional observations from a re-analysis of the deposited data

How the results depend on the processing

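Of the members, Hmgb2 and H2afz kept their calls under all 21 alternatives, the highest limma adjusted p being 0.0188 and 0.0308. The count of members called higher was 3 and became 6 with a GC and length trend removed, with or without the replicate block, and the count called lower was 1 and became 0 with chromosome medians removed. Leaving out 1 library gave 2 to 6 members higher, and 3 to 7 with reads of near-identical copies added, an alternative chosen after seeing the data; it gave 0 to 1 lower either way. Over all tested genes the counts were 1344 higher and 1672 lower, and 590 to 2572 higher and 923 to 2648 lower with 1 library left out. The higher count was 2386 with the GC and length trend removed and 2105 with the replicate block as well; the cause was not tested. Directions reversed for 3 members that had not passed. With 1 library left out, Lmna ran between -0.041 (without KD3) and 0.30 (without KD1), Lmnb2 between -0.16 (without KD3) and 0.10 (without KD1), and Hmga1 between -0.42 (without KD3) and 0.026 (without KD1). Lmnb2 was also 0.16 with chromosome medians removed and 0.0032 after quantile normalization.

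Deviations of same-numbered KD and NC libraries correlated at 0.08, -0.04 and 0.15, and those of unlike-numbered libraries at -0.16 to 0.08. With 3 libraries a group these values cannot decide whether replicate numbers pair the libraries. With a replicate block 3 members were higher and 1 lower, and 1050 genes were higher and 1383 lower in all. The lowest depth behind a member's value was the 149 reads of Hmga1 in KD1, where counting error is largest.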
